A study of Mus musculus with 6 samples.

Results

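Glycolysis and hypoxia response genes were examined in mouse calvaria cells, with the group defined as 34 named genes: 21 that encode enzymes and enzyme regulators of glucose breakdown and 13 that sense or answer low oxygen. They were chosen by name, with earlier results of these data known. All array probes whose platform annotation carried one of the names were taken, which gave 47 probes for 29 of the 34 genes out of 25697 probes for 16593 named genes on the array. A probe was tested if its signal was detected on 3 or more of the 6 arrays (detection p under 0.01), and 30 probes for 21 of the genes passed. Of these, 15 were enzymes and 6 belonged to the hypoxia response.

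Glycolysis splits glucose into pyruvate in the cytosol. Hexokinases trap glucose as its phosphate, phosphofructokinase commits it to breakdown, and pyruvate kinase makes pyruvate, which lactate dehydrogenase turns into lactate or pyruvate dehydrogenase passes to the mitochondria. In low oxygen the prolyl hydroxylases no longer mark the hypoxia-inducible factors (HIF) for destruction, and HIF then binds a short DNA core beside many genes of glycolysis, angiogenesis and mitochondrial turnover. Cells of the osteoblast lineage are known to rely on glycolysis to a large extent.

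The arrays were Illumina mouse BeadChips, 3 for each group, hybridised with total RNA from calvaria cells of C57BL/6 mice. GEO's labels call the groups *Mmp13* knockout and wildtype. The paper describes its arrays as GFP-sorted *Osx1*-positive calvaria cells from ERα f/f;GFP:*Osx1-Cre* mice, in which ERα was deleted, and from GFP:*Osx1-Cre* controls. The GFP:*Osx1-Cre* transgene, active in cells that express the osteoblast lineage factor osterix, was thus carried by both groups. It served to direct the deletion to such cells, and the reach of the deletion was not measured here. The sources used here do not say if a group's 3 arrays hold RNA of different cultures or mice. What the p-values weigh is thus array-to-array spread, some of which may be technical. Because the names conflict, the groups are called knockout-labelled and wildtype-labelled below.

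*Mmp13*, the collagen-cutting enzyme named in the labels, went against a knockout. Its brightest probe (ILMN_2737685) read 12.41, 12.91 and 12.79 on the knockout-labelled arrays and 8.91, 9.42 and 9.73 on the wildtype-labelled arrays, in normalized log2 signal. It was therefore higher on the knockout-labelled arrays (log2 fold change 3.35 ± 0.24 SE, limma adjusted p = 0.00048), with no overlap between groups. The other 2 *Mmp13* probes were detected on all 3 knockout-labelled arrays but on only 1 and none of the wildtype-labelled arrays, so the lower group sat at or near background. The probe with no detection there (ILMN_2799267) was at least 2.23-fold higher on the knockout-labelled arrays. Neither of the probes for *Esr1*, which encodes ERα, was detected on any array (detection p 0.16 to 0.98), so that gene gave no check of the labels. The paper does not match its groups to single arrays, and the division used here is that of the labels.

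On each array 40.2% to 43.6% of probes were detected. The knockout-labelled arrays correlated at 0.991 to 0.995 with each other and the wildtype-labelled arrays at 0.929 to 0.982. Wildtype replicate 2 departed by over 1 log2 unit from the mean of the other 2 arrays of its group at 881 probes (7.94%). Wildtype replicate 3 did so at 647 (5.83%). With each member taken by its brightest probe, only *Hif1a* showed such a departure. Dimmer probes of *Pfkm* and *Pfkp* also departed that far, both on wildtype replicate 2 and on wildtype replicate 3. Markers of the osteoblast lineage were detected, with summed signals of 25826 to 29957 on the knockout-labelled and 20269 to 29255 on the wildtype-labelled arrays. Of the 6 tested, 3 were higher on the knockout-labelled arrays at an adjusted p under 0.05, beside 9.62% of all tested genes. The osterix gene *Sp7* was lower (log2 fold change -0.80, limma adjusted p = 0.0073). Those higher were *Bglap* (1.43, adjusted p = 0.0018), *Alpl* (1.02, adjusted p = 0.025) and *Ibsp* (2.25, adjusted p = 0.00048). *Ibsp* was detected on all 3 knockout-labelled arrays but on no wildtype-labelled array. It thus passed the detection rule only through the group where it was high, and was at least 3.1-fold higher there.

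The promoters of the genes that the results turn on are shown because HIF acts through its core there. Each is the 250 bases before a RefSeq transcription start (GRCm38.p6), read 5′ to 3′ on the gene's strand, with the HIF core (ACGTG or GCGTG on either strand, so CACGT or CACGC where it lies on the other strand) in capitals. *Hk2* (minus strand, chr6:82774455-82774704) had 2 cores. *Pkm* (plus strand) had none before its first start (chr9:59656326-59656575) and 1 before its second (chr9:59656977-59657226). *Adm* (plus strand, chr7:110627407-110627656) had 2, both of the GCGTG form, and *Ldha* (plus strand, chr7:46845554-46845803), shown for contrast because it did not pass the test, had 5 before its first start, 4 of which overlap in pairs as CACGTG.
Hk2: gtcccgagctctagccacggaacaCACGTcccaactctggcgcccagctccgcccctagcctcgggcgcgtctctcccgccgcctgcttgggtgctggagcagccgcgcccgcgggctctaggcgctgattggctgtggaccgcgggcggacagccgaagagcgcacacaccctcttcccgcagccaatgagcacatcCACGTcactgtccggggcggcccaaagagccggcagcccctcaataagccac
Pkm, first start: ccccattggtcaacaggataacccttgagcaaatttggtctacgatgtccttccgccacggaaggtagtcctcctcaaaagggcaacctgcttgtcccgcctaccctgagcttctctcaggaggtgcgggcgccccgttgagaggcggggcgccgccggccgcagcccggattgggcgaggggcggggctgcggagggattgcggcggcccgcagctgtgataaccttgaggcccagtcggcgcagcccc
Pkm, second start: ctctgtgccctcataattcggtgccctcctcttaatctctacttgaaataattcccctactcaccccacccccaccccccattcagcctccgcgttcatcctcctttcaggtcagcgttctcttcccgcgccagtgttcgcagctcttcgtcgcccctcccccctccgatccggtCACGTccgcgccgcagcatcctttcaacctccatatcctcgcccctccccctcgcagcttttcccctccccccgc
Adm: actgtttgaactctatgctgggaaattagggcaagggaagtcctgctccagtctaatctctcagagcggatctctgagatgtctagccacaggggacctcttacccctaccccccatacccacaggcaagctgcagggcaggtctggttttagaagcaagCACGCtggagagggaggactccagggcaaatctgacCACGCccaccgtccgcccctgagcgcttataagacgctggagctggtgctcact
Ldha, first start: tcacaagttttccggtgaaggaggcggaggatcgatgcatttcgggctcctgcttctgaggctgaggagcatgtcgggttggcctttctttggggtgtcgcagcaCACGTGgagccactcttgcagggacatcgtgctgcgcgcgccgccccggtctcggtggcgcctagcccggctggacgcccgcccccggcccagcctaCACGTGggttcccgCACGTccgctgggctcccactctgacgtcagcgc

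The core was common among the members, whatever their result. It stood in a window of 28 of the 31 members with a RefSeq promoter (90.3%), in 3 of 3 that passed the test, in 14 of the 16 tested members that did not (87.5%) and in 11 of 12 that were not tested (91.7%). Among all 6295 tested genes with a promoter, 63.0% had a core in such a window, and among all 27025 genes 41.5% did. A match is a run of letters and not a measured binding site.

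None of the 21 tested members rose, 3 fell and 18 did not pass the test at an adjusted p of 0.05 over all 11089 tested probes, counting each gene by its brightest probe. The 3 were *Pkm* and *Hk2*, which encode a pyruvate kinase and a hexokinase, and *Adm*, which encodes the vasodilator peptide adrenomedullin. The share that fell, 14.3%, stood beside 9.93% lower, 9.62% higher and 19.5% in either direction among all 7695 tested genes. The median log2 fold change of the members was -0.05, against -0.04 for all genes. The groups of arrays did not overlap for 7 of the 21 members (33.3%), against 44.2% of all genes. Both the median and the share called were near those of all genes.

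**Figure D1:**
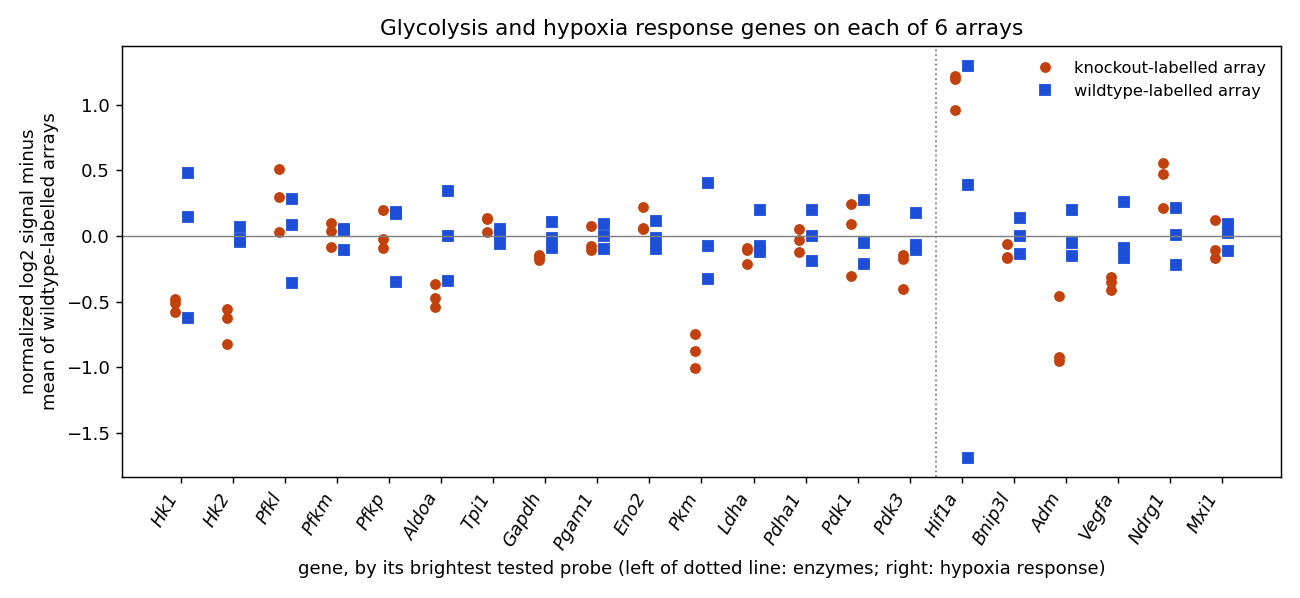
Normalized log2 signal of the 21 tested genes on each of the 6 arrays, minus the mean of the 3 wildtype-labelled arrays; each gene is drawn by its brightest tested probe, enzymes left of the dotted line and hypoxia response genes right of it. Most genes scatter around 0 in both groups. The knockout-labelled points of *Hk2*, *Pkm* and *Adm* lie below all wildtype-labelled points. So do those of *Aldoa*, *Gapdh*, *Pdk3* and *Vegfa*, which did not pass the test. Wildtype replicate 2 lies far below for *Hif1a*.

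Among the 15 tested enzymes 2 fell (13.3%) and 13 did not pass. *Pkm*, the last step of glycolysis, read 12.31, 12.05 and 12.18 on the knockout-labelled arrays and 12.98, 13.46 and 12.73 on the wildtype-labelled arrays (ILMN_2756041). Every knockout-labelled array was below every wildtype-labelled array. The means were 12.18 ± 0.13 and 13.05 ± 0.37 (SD, n = 3), which put the signal at 54.5% of the wildtype-labelled level (log2 fold change -0.87 ± 0.20 SE, 95% interval -1.34 to -0.40, limma adjusted p = 0.027). The annotation gives 1 probe for the gene, and the result does not tell its spliced forms apart.

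*Hk2*, the inducible hexokinase that starts the pathway, read 9.15, 8.88 and 9.08 against 9.77, 9.68 and 9.66 (ILMN_1239397). The groups again did not overlap, with means of 9.04 ± 0.14 and 9.70 ± 0.06 (SD, n = 3). The signal was 63.1% of the wildtype-labelled level (log2 fold change -0.66 ± 0.11 SE, 95% interval -0.94 to -0.39, limma adjusted p = 0.011). *Hk1*, the constitutive hexokinase, read 7.14, 7.21 and 7.24 against 7.87, 8.20 and 7.10. Wildtype replicate 3 lay below all 3 knockout-labelled arrays, so the groups overlapped, and the change did not pass the test (-0.53 ± 0.27 SE, adjusted p = 0.21). Without that array it passed (-0.84, adjusted p = 0.0086), and without wildtype replicate 2 it shrank to -0.29 (adjusted p = 0.37).

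**Figure D2:**
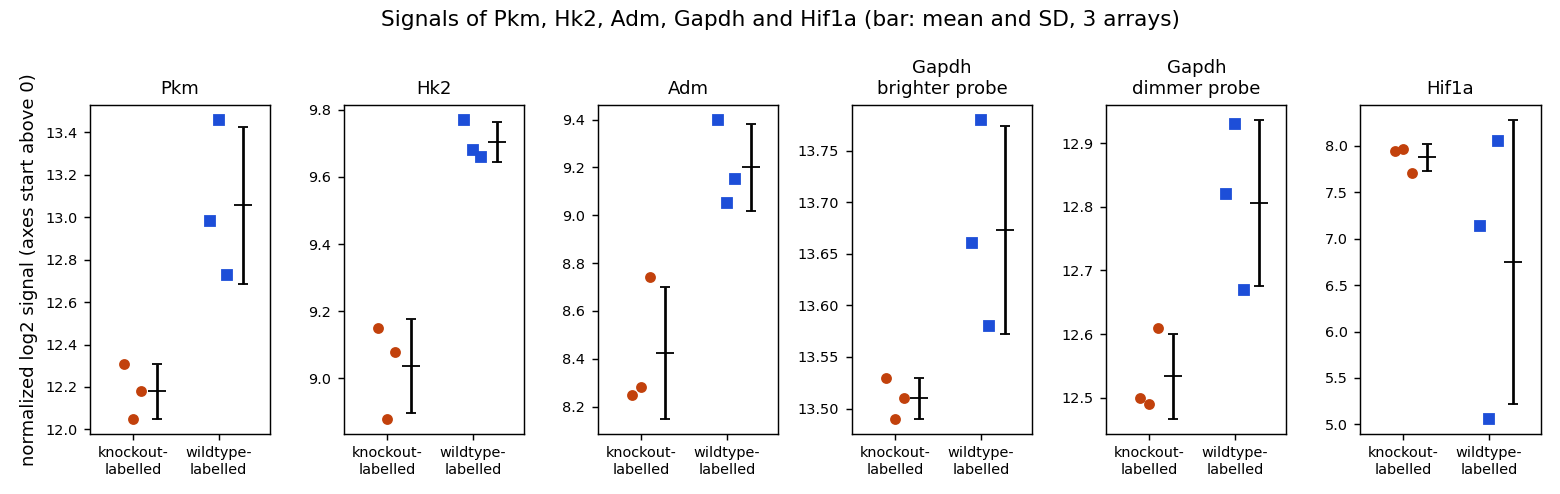
Normalized log2 signal (vertical axes differ and start above 0) on the 3 knockout-labelled and 3 wildtype-labelled arrays, with the mean and SD of each group as bars. *Pkm*, *Hk2*, *Adm* and both *Gapdh* probes show no overlap between the groups, but the gap of *Gapdh* is small, -0.16 and -0.27 in log2 fold change; for *Hif1a* the wildtype-labelled arrays spread from 5.06 to 8.05.

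The 3 phosphofructokinase genes gave no call. The brightest probe of the muscle isoform *Pfkm* differed by 0.01 (95% interval -0.24 to 0.27, adjusted p = 0.95) and that of the platelet isoform *Pfkp* by 0.02 (-0.40 to 0.45, adjusted p = 0.94), with signs that turned under other settings. The liver isoform *Pfkl* read 9.75, 9.54 and 9.27 against 9.32, 8.88 and 9.52 (0.28, adjusted p = 0.36). The probes of one gene differed in sign or size, but none passed the test. The 2 dimmer *Pfkm* probes stood at 0.54 (adjusted p = 0.39) and -0.55 (adjusted p = 0.12), the second with no overlap between groups. The dimmer *Pfkp* probe stood at 0.80 (adjusted p = 0.17) and the dimmer *Pfkl* probe at -0.17 (adjusted p = 0.69). Among these dimmer probes, the *Pfkm* probe at -0.55 was detected on all 3 arrays of each group, and the others were not. On wildtype replicate 2 the *Pfkm* probe at 0.54 and the *Pfkp* probe read 5.09 and 5.28 and were not detected. The dimmer *Pfkl* probe was detected on 1 knockout-labelled and 2 wildtype-labelled arrays.

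*Aldoa*, the aldolase that splits the phosphorylated sugar, read 10.73, 10.56 and 10.63 against 11.10, 11.44 and 10.76. The groups did not overlap, yet the change did not pass (-0.46 ± 0.18 SE, 95% interval -0.89 to -0.03, adjusted p = 0.13). Wildtype replicate 3 was the lowest of its group, and without it the change passed (-0.63, adjusted p = 0.022). Without wildtype replicate 2 it was -0.29 (adjusted p = 0.18). *Tpi1*, triosephosphate isomerase, had 3 tested probes at 0.10, 0.02 and 0.08, with adjusted p-values of 0.50, 0.94 and 0.74.

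*Gapdh*, often used as a reference transcript, was measured by 2 probes. The brighter read 13.53, 13.49 and 13.51 against 13.66, 13.78 and 13.58, and the dimmer 12.50, 12.49 and 12.61 against 12.82, 12.93 and 12.67. Both were lower on every knockout-labelled array than on any wildtype-labelled array. Neither passed the test (-0.16 ± 0.10 SE, adjusted p = 0.29, and -0.27 ± 0.11 SE, adjusted p = 0.14). The 95% intervals were -0.40 to 0.08 and -0.53 to 0.00.

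The steps on either side of pyruvate kinase gave no call. *Pgam1*, a phosphoglycerate mutase, differed by -0.04 (95% interval -0.30 to 0.22) and *Eno2*, an enolase, by 0.11 (-0.15 to 0.37). Among the members, the enolase step was read through *Eno2* alone, as no probe was annotated to *Eno1*. *Ldha*, which makes lactate and had the most HIF cores of the promoters shown, read 12.22, 12.24 and 12.12 against 12.25, 12.53 and 12.21. Its groups overlapped and the change did not pass (-0.14 ± 0.12 SE, 95% interval -0.43 to 0.16, adjusted p = 0.45).

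At the gate between pyruvate and the mitochondria, *Pdha1*, a subunit of pyruvate dehydrogenase, differed by -0.04 (adjusted p = 0.84). *Pdk1*, a kinase that shuts that enzyme off, differed by 0.01 (adjusted p = 0.97). A second such kinase, *Pdk3*, read 8.89, 9.15 and 9.12 against 9.23, 9.47 and 9.19, with no overlap but no call (-0.24 ± 0.13 SE, adjusted p = 0.23).

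By their brightest probes, the enzymes varied among themselves in a way that followed the wildtype-labelled arrays. For 8 of the 15 enzymes (53.3%) wildtype replicate 2 was the highest and replicate 3 the lowest of that group: *Hk1*, *Aldoa*, *Gapdh*, *Eno2*, *Pkm*, *Ldha*, *Pdk1* and *Pdk3*. For 5 (33.3%) the order was the reverse, *Pfkl*, *Pfkm*, *Pfkp*, *Tpi1* and *Pdha1*. Among all tested genes these shares were 30.6% and 26.1%. The order differed between probes of one gene. Dimmer tested probes of *Tpi1* (ILMN_2932359), *Pfkm* (ILMN_3004553) and *Pfkl* (ILMN_2871325) had replicate 2 highest and replicate 3 lowest. Those of *Pfkm* (ILMN_1252214) and *Pfkp* (ILMN_2673233) kept the reverse order, and *Tpi1* ILMN_1231447 had neither. Wildtype replicates 2 and 3 were also the arrays that departed from the others of their group at the most probes.

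**Figure D3:**
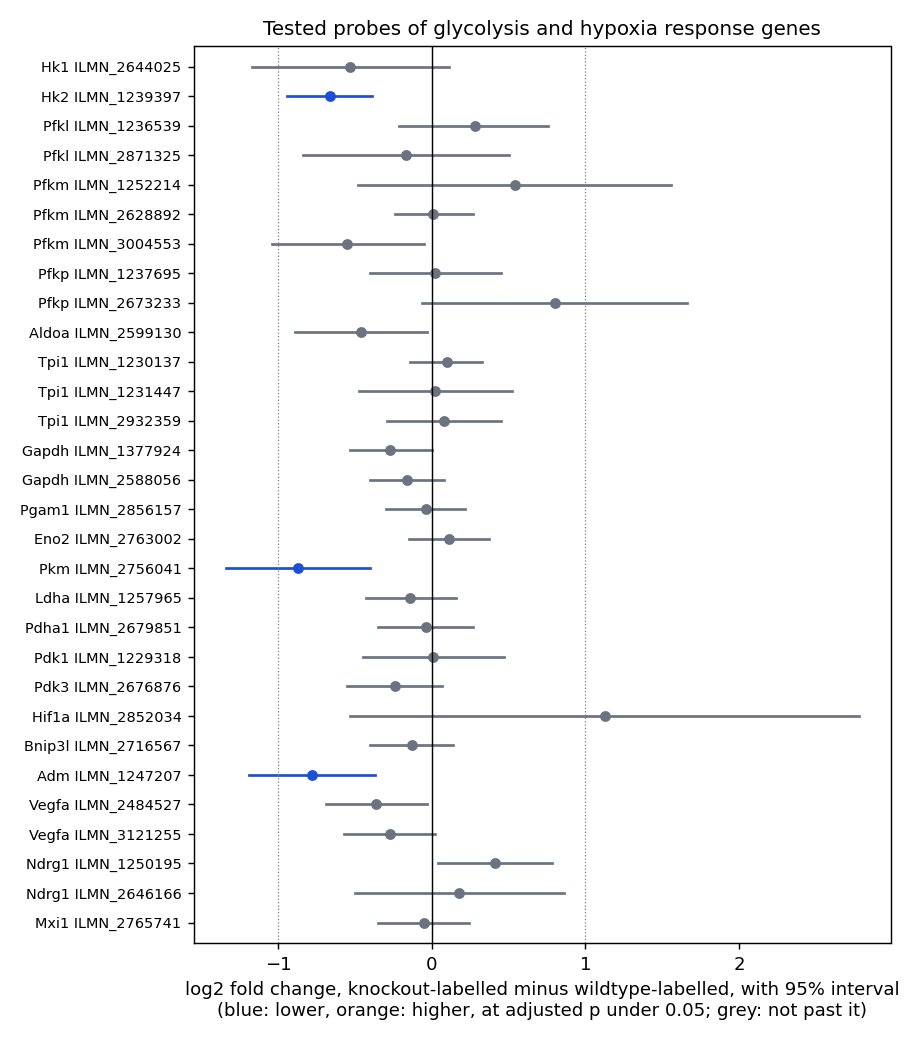
Log2 fold change, knockout-labelled minus wildtype-labelled, with its 95% interval for the 30 tested probes; blue marks probes lower at an adjusted p under 0.05 and grey those that did not pass. The probes of *Hk2*, *Pkm* and *Adm* are the ones in blue, none is higher, and *Hif1a* has the widest interval, from -0.53 to 2.78.

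Among the hypoxia genes, 6 were tested, and 1 fell. *Hif1a*, the oxygen-regulated HIF subunit, is controlled mainly at the protein level, which an array does not read. Its 1 probe (ILMN_2852034) read 7.95, 7.97 and 7.71 on the knockout-labelled arrays and 7.14, 5.06 and 8.05 on the wildtype-labelled arrays. It was detected on all 3 of the former and on 2 of the latter. Wildtype replicate 2 was the low one and wildtype replicate 3 the highest of all 6, so the groups overlapped and the change did not pass (1.13 ± 0.69 SE, 95% interval -0.53 to 2.78, adjusted p = 0.28). The value was 0.28 without wildtype replicate 2 and 1.78 without replicate 3 (adjusted p = 0.47 and 0.055), and 0.66 in the authors' normalized table.

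*Adm*, a HIF target, read 8.25, 8.28 and 8.74 against 9.40, 9.05 and 9.15 (ILMN_1247207). All 3 knockout-labelled arrays were lower than all 3 wildtype-labelled arrays. The means were 8.42 ± 0.27 and 9.20 ± 0.18 (SD, n = 3), and the signal was 58.4% of the wildtype-labelled level (log2 fold change -0.78 ± 0.17 SE, 95% interval -1.19 to -0.37, limma adjusted p = 0.025).

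*Vegfa*, the angiogenic growth factor, had 2 tested probes. The brighter read 8.67, 8.73 and 8.77 against 8.99, 8.91 and 9.34, and the dimmer 7.17, 7.05 and 6.94 against 7.30, 7.19 and 7.49. In both probes the groups stood apart, but neither passed (-0.36 ± 0.14 SE, adjusted p = 0.12, and -0.27 ± 0.12 SE, adjusted p = 0.17), and the remaining probe was not detected on any array. *Ndrg1*, a stress-responsive gene, stood at 0.41 (95% interval 0.04 to 0.78, adjusted p = 0.12) by its brighter and 0.18 (adjusted p = 0.67) by its dimmer probe. *Bnip3l*, a receptor for the removal of mitochondria, differed by -0.13 (adjusted p = 0.44). *Mxi1*, a MYC antagonist, differed by -0.05 (adjusted p = 0.77), and that sign turned with other scaling (0.06 with median scaling).

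Of the 18 tested members that did not pass, 16 had a 95% interval wholly within 1 log2 unit of no change, the exceptions being *Hk1* and *Hif1a*. The remaining members could not be compared. *Aldoc*, *Pgk1*, *Pfkfb3*, *Epas1*, *Egln1*, *Egln3*, *Bnip3* and *Car9* had probes that missed the detection rule, among them both of the oxygen-sensing prolyl hydroxylases listed. Their signals and those of the undetected *Pfkp* and *Vegfa* probes ran from 61.7 to 116.2, and the array medians from 85.1 to 108.9. The only detected value among these 17 probes was that of an *Epas1* probe on 1 knockout-labelled array. No probe was annotated to *Gpi1*, *Eno1*, *Ldhb*, *Ankrd37* or *Ero1l* here.

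The 3 calls depended on the arrays used, though not on the direction. With each array left out in turn, *Hk2* stayed between -0.72 and -0.58 and passed in 4 of 6 fits, missing without the second knockout-labelled array of a heading shared by 2 (adjusted p = 0.053) and without wildtype replicate 1 (adjusted p = 0.057). *Adm* stayed between -0.93 and -0.68 and passed in 3 of 6, missing without knockout replicate 1 (0.094), the first array of the shared heading (0.11) and wildtype replicate 1 (0.094). *Pkm* stayed between -1.04 and -0.67 and passed in 2 of 6, without wildtype replicate 2 (0.015) or 3 (0.0093), and otherwise had adjusted p-values of 0.073 to 0.11.

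**Figure D4:**
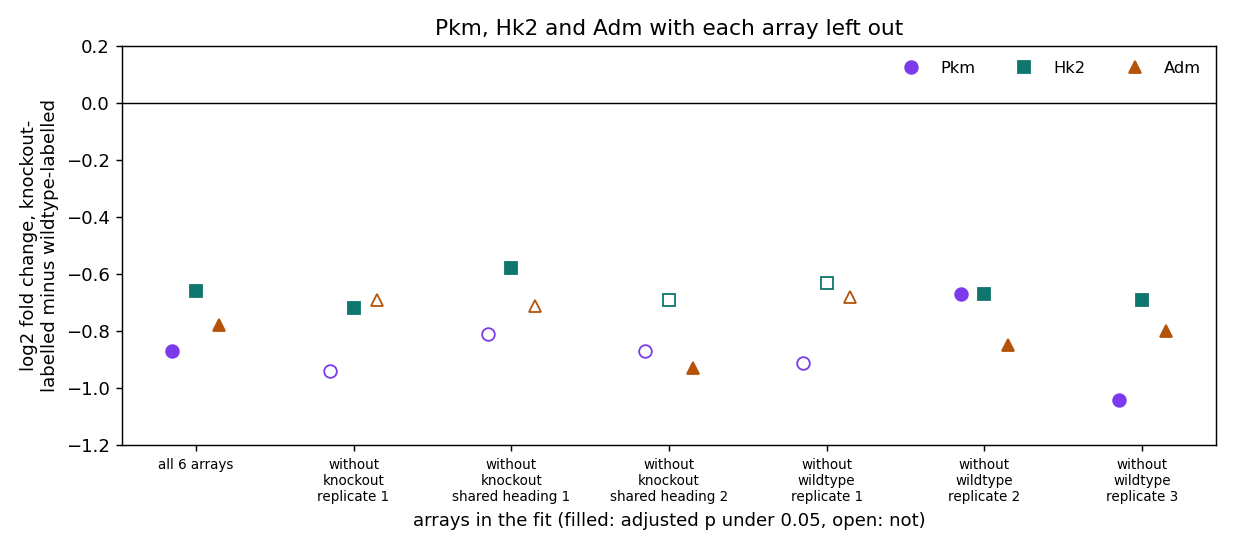
Log2 fold change of *Pkm*, *Hk2* and *Adm* with all 6 arrays and with each array left out; filled symbols passed an adjusted p of 0.05 and open symbols did not. All values lie between -1.04 and -0.58, and *Hk2* is filled in 4, *Adm* in 3 and *Pkm* in 2 of the 6 reduced fits.

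Other genes of the same pathways were taken from 6 lists of 70 genes, of which 36 were tested. Of these 4 rose and 8 fell (33.3% called, against 19.5% of all genes). The 6 lists were chosen with earlier results of these data known, so their shares describe the lists and do not test them. The count of 12 called genes came to 4 or 5 without any 1 of the knockout-labelled arrays or without wildtype replicate 1. Of 2 tested transporters the glucose carrier *Slc2a3* fell, from 6.95 ± 0.22 to 6.24 ± 0.06 (log2 fold change -0.72, adjusted p = 0.015), while the main carrier *Slc2a1* stood at 0.05. Of 4 other glycolytic isoforms and regulators 1 rose, the muscle mutase *Pgam2* (0.58, adjusted p = 0.013). Both *Slc2a3* and *Pgam2* missed the threshold without any 1 of the knockout-labelled arrays or wildtype replicate 1 (adjusted p = 0.052 to 0.072). None of the 4 tested pentose phosphate genes, which draw glucose phosphate into a side branch, passed the test, with log2 fold changes of -0.29 to 0.18 and 1 unadjusted p under 0.05.

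Around pyruvate dehydrogenase, 3 of 6 tested genes changed, beside 19.5% of all genes, in a list also chosen with earlier results known. Both phosphatases that switch the enzyme on rose by their tested probes, *Pdp1* from 6.08 ± 0.28 to 7.37 ± 0.16 (log2 fold change 1.30, adjusted p = 0.004) and *Pdp2* from 7.76 ± 0.16 to 8.30 ± 0.06 (0.54, adjusted p = 0.025). A dimmer *Pdp2* probe (ILMN_3057482) went the other way, with means of 5.15 on the knockout-labelled and 5.54 on the wildtype-labelled arrays and no overlap. It was detected on 0 knockout-labelled and 2 wildtype-labelled arrays, so it was near background and not tested. *Dlat*, the core acetyltransferase of the complex, fell from 6.15 ± 0.19 to 5.49 ± 0.17 (-0.67, adjusted p = 0.025). The members at the same step, *Pdha1*, *Pdk1* and *Pdk3*, did not pass. *Pdp1* passed with any 1 array left out, whereas *Pdp2* and *Dlat* each passed in 2 of 6 such fits, missing without any 1 of the knockout-labelled arrays or wildtype replicate 1 (adjusted p = 0.053 to 0.11). *Dlat* also missed with median scaling (-0.50, adjusted p = 0.098).

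In oxygen sensing, *Vhl*, which targets HIF for destruction, rose (0.40, adjusted p = 0.046) and *Cited2*, a competitor of HIF for its coactivator, fell from 7.58 ± 0.23 to 6.80 ± 0.05 (-0.78, adjusted p = 0.013), out of 4 tested. *Vhl* passed in 2 of 6 fits with 1 array left out, missing without any 1 of the knockout-labelled arrays or wildtype replicate 1 (adjusted p = 0.12 to 0.16), and missed with median scaling and the looser detection rule (adjusted p = 0.061 and 0.054). *Cited2* passed in 3 of 6, missing without either array of the shared heading or wildtype replicate 1 (0.062 to 0.064). Of 16 other HIF targets tested, none rose and 5 fell (31.2%), beside 9.93% lower among all genes. That list, too, was chosen with earlier results known. *Hmox1*, which breaks down heme, fell from 11.21 ± 0.34 to 9.68 ± 0.09 (log2 fold change -1.52, adjusted p = 0.0026). *Tfrc*, the transferrin receptor, fell from 8.42 ± 0.16 to 7.28 ± 0.15 (-1.14, adjusted p = 0.0024), and *Kdm3a*, a histone demethylase, from 7.13 ± 0.08 to 6.41 ± 0.13 (-0.73, adjusted p = 0.0075). The probes of *Kdm3a* disagreed, the other 2 being at -0.06 (95% interval -0.32 to 0.19, adjusted p = 0.69) and -0.32 (adjusted p = 0.20), while the dimmer *Tfrc* probe was also lower (-0.83, adjusted p = 0.0079). The others were *Plod2* and *P4ha1*, both collagen hydroxylases, at -0.63 (adjusted p = 0.033) and -0.55 (adjusted p = 0.038). Both missed without any 1 of the knockout-labelled arrays or wildtype replicate 1 (0.062 to 0.13), and *Hmox1*, *Tfrc* and the brightest *Kdm3a* probe passed with any 1 array left out.

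**Figure D5:**
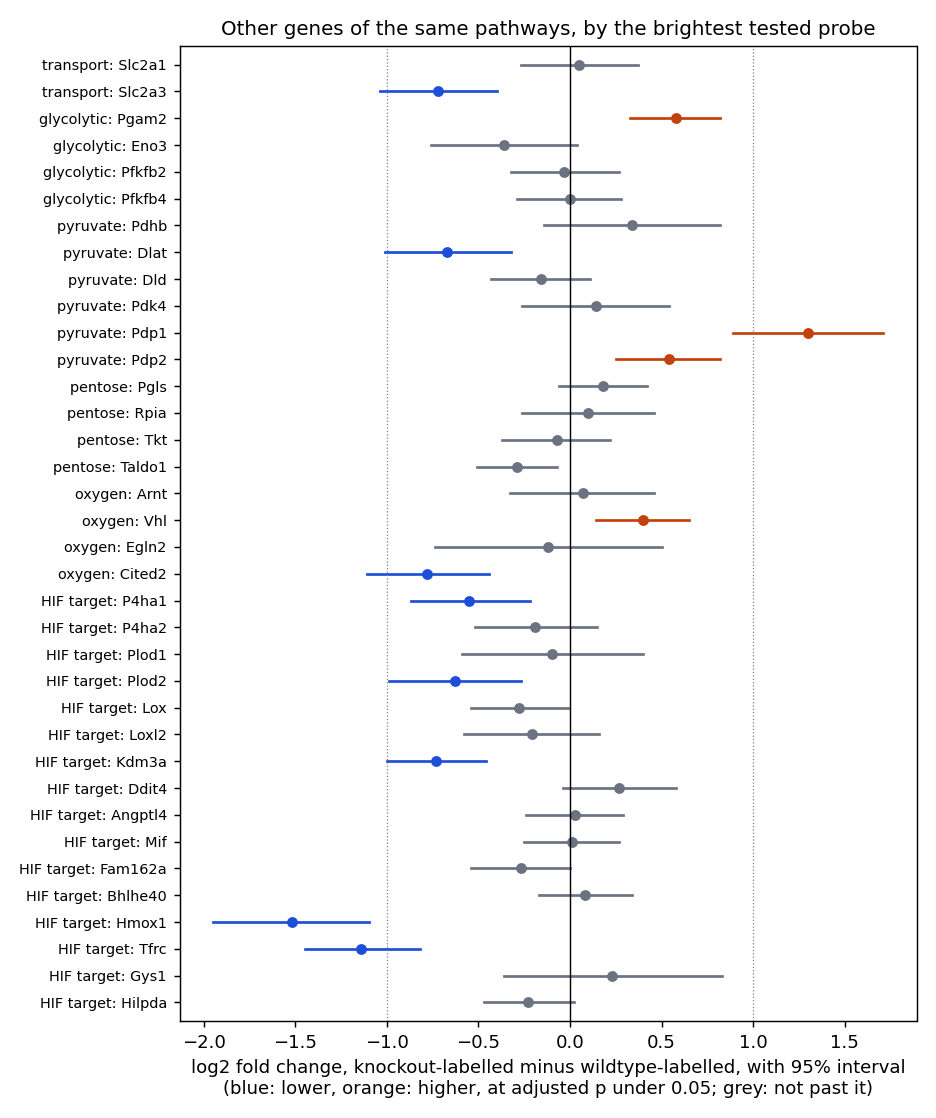
Log2 fold change, knockout-labelled minus wildtype-labelled, with its 95% interval for the 36 tested genes of the other pathway lists, each by its brightest probe; blue marks genes lower and orange genes higher at an adjusted p under 0.05. The 5 blue HIF targets run from -1.52 to -0.55, and *Pdp1* at 1.30 is the largest of the 4 orange values.

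Markers of other cells moved with the groups as well. Of the 15 macrophage and osteoclast markers 9 were tested. The osteoclast protease *Ctsk* stood at 0.12, and the other 8 were lower on the knockout-labelled arrays, beside 9.93% of all tested genes. Of these 8, *Cd14*, *Lyz2* and *Laptm5* were detected on all 6 arrays, at -1.84, -1.51 and -1.07. The other 5, *Adgre1*, *Fcer1g*, *Ctss*, *Cd52* and *Tyrobp*, were detected on all wildtype-labelled arrays but on 0 to 2 of the knockout-labelled arrays, so they could pass the detection rule through the group where they were high. The summed signal of all 9 tested markers ran from 6123 to 6529 on the knockout-labelled and from 8546 to 9931 on the wildtype-labelled arrays. That sum includes *Ctsk*, the brightest of the 9, with mean log2 signals of 12.16 on the knockout-labelled and 12.04 on the wildtype-labelled arrays. It therefore understates the fall of the 8 lower markers. Of the defining markers, *Adgre1* was detected on 2 knockout-labelled and all 3 wildtype-labelled arrays, whereas *Ptprc*, *Itgam* and *Acp5* were detected on no array. All 4 tested proliferation markers were higher on the knockout-labelled arrays, beside 9.62% of all tested genes. Their summed signals were 3553 to 3838 against 983 to 1330. No endothelial or erythroid marker was detected often enough to be tested. The part of these differences in the lower *Pkm*, *Hk2* and *Adm* signals, and in those of *Hmox1*, *Tfrc* and the other pathway genes, was not tested. In such bulk RNA, fewer cells of a type and less RNA per cell cannot be told apart.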

How the data were processed

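The intensities are Illumina BeadArray signals that the authors deposited without normalization, with a detection p-value that the authors' scanner software gave beside each signal. The authors' second table holds log2 values after quantile normalization with lumi (version not given in the sources used here), with no background subtracted, and served as an alternative. The 25697 probes of the tables were linked by their ranks on 4 arrays. Knockout columns that share a heading were used by group only.

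Signals were background-corrected and quantile-normalized by neqc (limma 3.58.1 in R 4.3.3, offset 16). Probes with a detection p under 0.01 on 3 or more arrays were tested by lmFit and eBayes, with Benjamini-Hochberg adjustment over all 11089. Fold changes are knockout-labelled minus wildtype-labelled. Platform annotation named 23978 probes, and the brightest probe stood for a gene. The script was tested on simulated data. Members, lists and naming rule (every array's values for called members, *Gapdh* and *Hif1a*, up to 3 called genes of each other list) were chosen with earlier results of these data known. *Plod2*, *P4ha1* and the arrays printed for further members were added after their values were seen. Intervals cover the spread between 6 arrays, whose number limits the precision.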

Additional observations from a re-analysis of the deposited data

How the results depend on the processing

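The calls of *Pkm*, *Hk2* and *Adm* were kept in each of the 11 alternatives that used all 6 arrays. These changed the background correction, scaling, detection rule, variance model or table, or added a replicate block. The fit without background correction and that of the authors' table gave the same values for these 3 genes and called 2129 probes each. They are thus not separate checks, though both are counted here and among the alternative values below. With 1 array left out, the called enzymes ranged from 0 to 4, the called hypoxia genes from 0 to 2, the called genes of the other pathway lists from 4 to 13, and all called probes from 743 to 3500 (2004 with 6 arrays). Array weights gave 2 called hypoxia genes, with *Ndrg1* at 0.47 (adjusted p = 0.046). Replicate numbers did not pair the arrays of the authors' table (correlations 0.105, -0.055 and -0.05), and the fit with the number as a block called 1331 probes and moved none of the 3 member calls; *Dlat*, *Pdp2*, *Vhl* and *P4ha1* did not pass in it (adjusted p = 0.055 to 0.092). Of 356 alternative values of the 21 member genes, 324 kept sign and side of the threshold, 9 lost and 5 gained the call, and 18 changed sign. The sign changes were in changes that had not passed: *Pfkm* (-0.06 with median scaling, -0.02 with array weights, -0.04 to 0.06 with 1 array out), *Pfkp* (-0.12, array weights, and -0.15 to 0.12), *Tpi1* (0.00, median scaling), *Mxi1* (0.06, median scaling, 0.03, cyclic loess, and -0.14 to 0.00), *Pgam1* (-0.09 to 0.01), *Pdha1* (-0.14 to 0.06) and *Pdk1* (-0.10 to 0.17). Dimmer probes did so too: *Pfkl* ILMN_2871325 (-0.45 to 0.05), *Tpi1* ILMN_1231447 (-0.15 with array weights, and -0.21 to 0.17) and *Tpi1* ILMN_2932359 (-0.05 to 0.20). The cause was not tested.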
